A study of Drosophila melanogaster with 19 samples.

Results

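The comparison set Drosophila melanogaster embryos that had been held in nuclear cycle 12 until 70 minutes after mitosis 11 (C12-70min) against control embryos early in cycle 14 (C14E). It took in every gene of the deposited table, 17735 of 17735, and used 2 of the 8 conditions and 5 of the 19 embryos of the series. The C12-70min mean stands for 2 embryos that were injected with double-stranded RNA against the 3 mitotic cyclins CycA, CycB and CycB3, without the inhibitor Frs that the study combined with the cyclin RNAi in other experiments. The control C14E mean stands for 3 embryos with no injection in their labels, which were collected shortly after entry into cycle 14. All of them came from flies carrying H2AvD-RFP, and RNA was prepared from single whole embryos and made into mRNA libraries. Arrest, injection, age and the number of nuclei all differ between the groups and cannot be told apart here, and the study notes that the times of arrested and control embryos are matched imperfectly.

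The first nuclear divisions of the fly embryo take place in a common cytoplasm and run on maternal mRNA. Mitotic cyclins bind the kinase Cdk1 and drive each mitosis, so embryos that lose them stay in interphase. At the midblastula transition, in cycle 14, the cycle lengthens, maternal mRNAs are cleared, zygotic transcription becomes widespread and the syncytium turns into cells. The question of the comparison is which transcripts an embryo with too few divisions held at a level like that of a control embryo that had reached cycle 14.

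Each deposited value is the log2 of a condition's mean CPM (read counts scaled to library size) plus 1, so levels below are the authors' means in CPM and a difference is the C12-70min value minus the control C14E value on the log2(CPM+1) scale. This scale understates the change of genes near or below 1 CPM. A gene was called higher or lower by a fold above 1.5 on that scale. The table has no column for a single embryo, no test between the conditions was made and no p-value is given. Whole reads of the single embryos could be worked out from the decimals of the means for many genes, and they show the spread. By these the 2 C12-70min embryos had 52804462 and 45152010 assigned reads, and the 3 control C14E embryos had 45620091, 43927989 and 41857204. They are called the deeper and the shallower C12-70min embryo below, because the decimals do not tie them to replicate numbers. Values of C12-70min embryos were sought up to a mean of 100 CPM and those of control C14E embryos up to a mean of 5 CPM, so abundant genes have no embryo values. An exact permutation test of 2 against 3 embryos cannot reach a p below 0.05, and no model was fitted to the recovered reads, which for all 5 embryos cover only genes that are low in control C14E. In whole embryos, fewer cells of a type and less RNA per cell cannot be told apart.

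The 3 targeted cyclins were lower at C12-70min. CycB3 (FBgn0015625, 3R:24867934-24870816) had 30.5 and 31.7 CPM in the C12-70min embryos, against a control C14E mean of 1573 CPM. CycA (FBgn0000404, 3L:11826719-11833578) had 22.6 and 35.1 CPM in the C12-70min embryos, against a control C14E mean of 998 CPM. CycB (FBgn0000405, 2R:22803521-22806948) had means of 75.6 CPM at C12-70min and 710 CPM in control C14E. The differences were -5.62, -5.06 and -3.21, which placed the 3 cyclins among the 10 lowest of the expressed genes, meaning those at 10 CPM or more in C12-70min, control C14E or both. Coordinates are those of the dm6 (BDGP6) assembly in the Ensembl 115 annotation.

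Among all genes, 1331 were higher at C12-70min (7.5%) and 1894 were lower (10.7%). Among the 5132 expressed genes 304 were higher (5.92%) and 1486 were lower (29.0%), and among the 1953 that reached 100 CPM, 85 were higher (4.35%) and 385 were lower (19.7%), so expressed genes were mostly lower where they differed. With a pseudocount of 0.1 in place of 1 the split over all genes turned round, to 3615 higher and 2427 lower. The median difference of the 4474 genes that reached 10 CPM in both conditions was -0.05, with quartiles of -0.57 and 0.21, and the distribution thus had a long lower side around a centre near 0. At low levels the picture was the opposite. The C12-70min mean was above 0 for 13054 genes and the control C14E mean for 11975, although the reads of the C12-70min embryos sum to 97956472 and those of the control C14E embryos to 131405284. Of 1610 genes with reads of all 5 embryos and at least 1 CPM in either condition, both C12-70min embryos lay above all 3 control C14E embryos in 818 (50.8%) and below all 3 in 115 (7.14%). Since control C14E reads were sought only up to 5 CPM, these genes are low in control C14E by construction, and a gene that is far lower at C12-70min can hardly be among them.

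**Figure D1:**
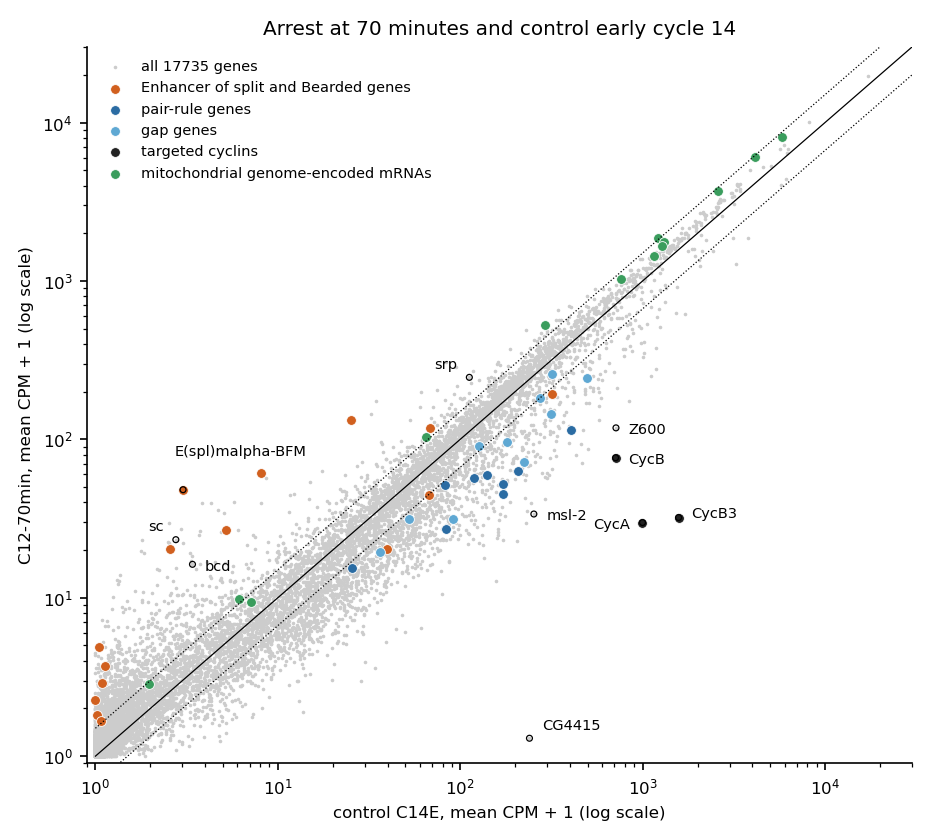
Mean CPM plus 1 of each of the 17735 genes, control C14E on the x axis and C12-70min on the y axis, both on log scales, with members of 5 gene lists in colour and 10 genes named. The solid line marks equal values and the dotted lines a fold of 1.5. CG4415, the 3 cyclins, Z600 and msl-2 lie far under the lines, and the Enhancer of split genes, sc and bcd lie above them.

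For the genes called by their mean, the 2 C12-70min embryos mostly lay on the same side of control C14E, which the choice of these genes favours. Of the 1486 expressed genes called lower, 1307 had reads of both embryos, both were below the control C14E mean in 1305, and both were below it by more than the fold in 1045. Of the 304 called higher, 214 had reads of both, both were above the mean in 208, and both by more than the fold in 144. The embryos also differed from each other. Over 2841 genes with at least 10 CPM at C12-70min and reads of both, the median absolute log2 difference between them was 0.30, and 21.7% of the genes differed by more than the fold. The shallower embryo was the higher one in 475 of these and the deeper one in 142. A mean near the threshold of 1.5 is therefore within the range of the spread between these embryos.

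Most of the patterning genes that set up the body plan in cycle 14 were lower at C12-70min. Pair-rule genes, transcription factors that divide the trunk into segment-wide stripes, were lower in 9 of 9, with a median difference of -1.61 against -0.10 for all expressed genes. All 9 were expressed, and 29.0% of all expressed genes were lower. ftz (3R:6864324-6866244) had 22.1 and 66.7 CPM in the C12-70min embryos, against a control C14E mean of 171 CPM. odd (2L:3604224-3606756) had 40.1 and 84.9 CPM in the C12-70min embryos, against a control C14E mean of 205 CPM. Both embryos were below the control C14E mean for each of the 8 pair-rule genes with reads, and the deeper embryo was the lower one for 8 of 8, by more than the fold for 6. opa (3R:4852813-4869979), which acts late among the pair-rule genes, had means of 113 CPM at C12-70min and 405 CPM in control C14E, while its means were 5.80 and 3.81 CPM at 30 and 50 minutes of arrest and 0.10 and 0.24 CPM in control C12 and C13. Its transcript was thus well above the control C13 level in arrested embryos at 70 minutes, and well under that of control C14E.

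Gap genes, which respond to the maternal gradients and mark broad regions, were lower in 7 of 10, with a median of -0.90. All 10 were expressed, so 70.0% were lower, beside 29.0% of all expressed genes. gt had 49.8 and 91.3 CPM in the C12-70min embryos, against a control C14E mean of 222 CPM, and tll, a gene of both ends of the embryo, had 97.9 and 92.9 CPM in the C12-70min embryos against a control C14E mean of 178 CPM. Kr (a mean of 182 CPM at C12-70min and 273 CPM in control C14E), hkb (90.1 CPM at C12-70min and 125 CPM in control C14E) and hb (259 CPM at C12-70min and 318 CPM in control C14E) were the members within the fold. Head patterning genes were lower in 7 of 7, all expressed, beside the same 29.0%, with a median of -1.21. The anterior gene oc had 28.6 and 13.3 CPM in the C12-70min embryos, against a control C14E mean of 59.2 CPM, and fkh, needed in the gut ends, had 56.7 and 56.4 CPM in the C12-70min embryos against a control C14E mean of 131 CPM. Both C12-70min embryos lay below the control C14E mean for all 5 gap genes called lower with reads and for all 7 head genes.

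Genes of the dorsal-ventral axis went both ways. Among 13 neuroectoderm and proneural genes, 7 were lower and 3 higher. The lower ones were led by sog (X:15603283-15633434), a secreted antagonist of Dpp, with 46.9 and 64.9 CPM in the C12-70min embryos, against a control C14E mean of 300 CPM (299.5 before rounding). rho, a protease that releases EGF ligands, had 6.36 and 19.5 CPM in the C12-70min embryos, against a control C14E mean of 57.6 CPM. The higher ones were the 3 proneural genes ac, sc and l(1)sc, neighbours on the X. ac had 33.4 and 18.5 CPM in the C12-70min embryos, against 1.27, 3.37 and 1.24 CPM in the control C14E embryos. sc (X:396060-397497) had 25.7 and 18.8 CPM in the C12-70min embryos, against 1.49, 2.64 and 1.15 CPM in the control C14E embryos. l(1)sc had 11.7 and 13.8 CPM in the C12-70min embryos, against 1.23, 1.18 and 7.41 CPM in the control C14E embryos. For each of the 3, both C12-70min embryos lay above all 3 control C14E embryos, as for 818 of the 1610 genes above (50.8%).

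In the dorsal ectoderm list, 7 of 15 genes were lower and 3 higher. Of the 12 expressed, 7 were lower (58.3%) and 2 higher (16.7%), beside 29.0% and 5.92% of all expressed genes. dpp, the BMP ligand that specifies dorsal fates, had 12.1 and 33.1 CPM in the C12-70min embryos, against a control C14E mean of 96.4 CPM, and its extracellular regulator tsg had 30.3 and 51.6 CPM in the C12-70min embryos against a control C14E mean of 107 CPM. egr, a ligand of the TNF family, and its receptor grnd were both lower. egr had 58.5 and 62.5 CPM in the C12-70min embryos, against a control C14E mean of 282 CPM, and grnd had 4.58 and 5.51 CPM in the C12-70min embryos against a control C14E mean of 49.1 CPM. Among the higher ones were zen2, a homeobox gene beside zen, with 23.1 and 24.98 CPM in the C12-70min embryos and a control C14E mean of 2.70 CPM, and scw, the second BMP ligand of the blastoderm, with means of 132 CPM at C12-70min and 52.3 CPM in control C14E. zen itself was within the fold, with 111 CPM at C12-70min and 103 CPM in control C14E. Of 12 mesoderm and ventral furrow genes, 6 were lower and 4 higher. twi, which specifies mesoderm, had means of 171 CPM at C12-70min and 351 CPM in control C14E, and its partner sna had 68.6 and 93.9 CPM in the C12-70min embryos, against a control C14E mean of 164 CPM.

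Segment polarity and Hox genes, which are switched on late in the blastoderm, were mostly low in both conditions. ptc and nkd were the abundant exceptions. ptc, the Hedgehog receptor, was lower, with means of 210 CPM at C12-70min and 723 CPM in control C14E. Of the 9 segment polarity genes, 3 were lower and 3 higher (33.3% each), beside 10.7% lower and 7.5% higher of all genes. The 3 higher ones were under 6 CPM. en had 4.64 and 2.66 CPM in the C12-70min embryos, against 0.22, 1.27 and 1.12 CPM in the control C14E embryos, and gsb had 8.20 and 2.86 CPM in the C12-70min embryos against 1.32, 1.23 and 1.003 CPM in the control C14E embryos. For each of these 2 genes, both C12-70min embryos lay above all 3 control C14E embryos. That was so in 50.8% of the 1610 genes with reads of all 5 embryos and at least 1 CPM in either condition. Of 8 Hox genes, 3 were lower (37.5%) and 1 was higher (12.5%), beside 10.7% and 7.5% of all genes. Abd-B, the most posterior of them, had 2.27 and 3.77 CPM in the C12-70min embryos, against 0.96, 0.64 and 1.19 CPM in the control C14E embryos, and Ubx had 0.66 and 1.02 CPM in the C12-70min embryos against 1.14, 1.43 and 3.27 CPM in the control C14E embryos.

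Genes of the Enhancer of split complex, targets of Notch signalling, stood out among the higher genes. Of 15 genes of the Enhancer of split and Bearded families, repressors and Notch regulators of which many are switched on by Notch, 12 were higher and 3 lower, with a median difference of 1.40. The 12 were 80.0% of the list, beside 7.5% of all genes. Of the 9 expressed members 6 were higher (66.7%, beside 5.92% of all expressed genes), and the other higher members were under 10 CPM in both conditions. Each of the 11 members of the Enhancer of split complex was higher. E(spl)malpha-BFM (3R:26010893-26011568), whose difference of 3.99 was the highest of all expressed genes, had 87.8 and 6.42 CPM in the C12-70min embryos, against 1.36, 1.46 and 3.25 CPM in the control C14E embryos. E(spl)m8-HLH had 35.5 and 3.41 CPM in the C12-70min embryos, against 0.96, 2.19 and 1.53 CPM in the control C14E embryos. E(spl)m5-HLH had 43.6 and 7.62 CPM in the C12-70min embryos, against 2.32, 2.41 and 7.84 CPM in the control C14E embryos. The groups overlapped for the last of these. The level at C12-70min rested largely on 1 embryo. For 10 of the 12 members with reads the deeper embryo was the higher one, by more than the fold each time, and over these 12 the median difference to the control C14E mean was 2.11 in the deeper embryo and 0.49 in the shallower. The other 2 were BobA and Brd of the Bearded complex, where the deeper embryo was the lower one. The 3 lower members, Brd, Tom and BobA, belong to the Bearded complex as well, together with Ocho, which was higher (118 CPM at C12-70min and 67.1 CPM in control C14E). BobA has near-identical copies, so its level is uncertain. The Notch ligand Dl was lower, with 66.2 and 89.2 CPM in the C12-70min embryos, against a control C14E mean of 255 CPM.

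**Figure D2:**
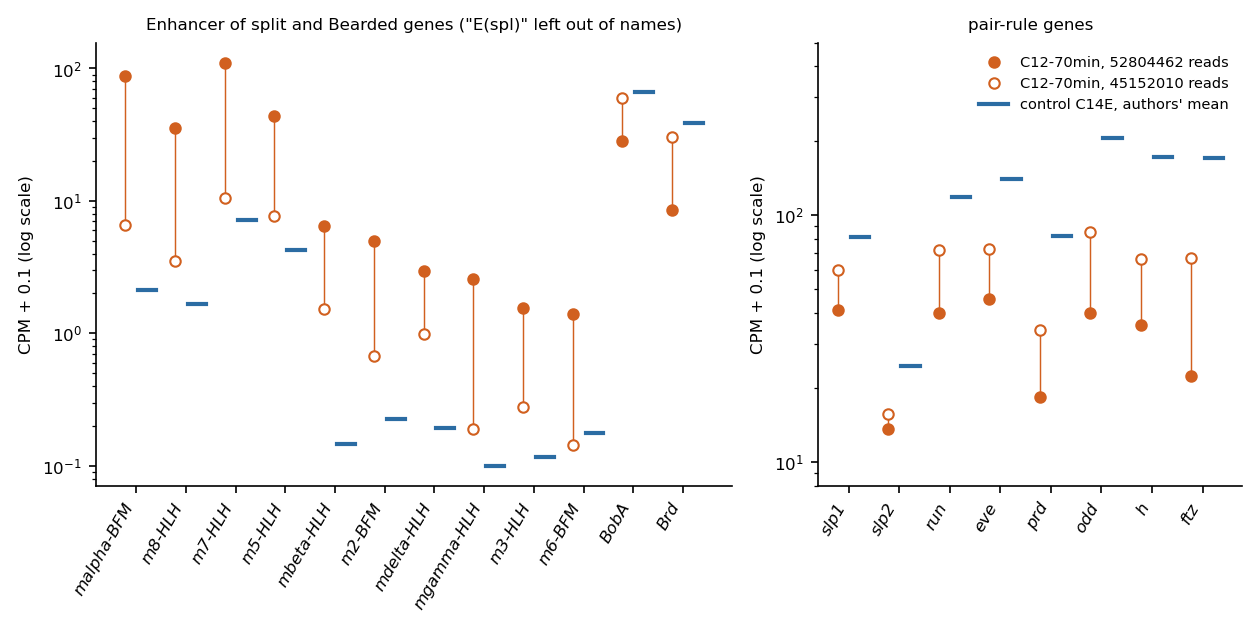
CPM plus 0.1 on a log scale of 12 Enhancer of split and Bearded genes (left) and 8 pair-rule genes (right) with reads of both C12-70min embryos. Filled and open circles are the deeper and the shallower C12-70min embryo, and bars are the control C14E mean. The deeper embryo is the higher one in 10 of the 12 genes on the left and the lower one in all 8 on the right.

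Of 11 genes around sex determination 2 were higher and 4 lower (36.4%, beside 29.0% of all expressed genes), with a median difference of 0.06. sisA (X:11321579-11322357) and sc, X-linked genes whose products activate Sxl, were higher, and sisA had means of 199 CPM at C12-70min and 60.1 CPM in control C14E. Sxl, the switch gene, was within the fold at 548 CPM at C12-70min and 499 CPM in control C14E. msl-2 (2L:3462218-3466112), a subunit of the male dosage compensation complex, had 23.0 and 42.6 CPM in the C12-70min embryos, against a control C14E mean of 252 CPM. da, a partner of the proneural proteins, had 38.2 and 40.6 CPM in the C12-70min embryos, against a control C14E mean of 187 CPM. The labels do not give the sex of an embryo.

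Cell cycle regulators beside the cyclins differed one by one. The Cdc25 phosphatases twe and stg, which activate Cdk1, were higher, twe with means of 175 CPM at C12-70min and 81.1 CPM in control C14E, and stg with 13.2 and 10.1 CPM in the C12-70min embryos, against a control C14E mean of 4.74 CPM. Inhibitors of the cycle differed. dap, Wee1, grp and mei-41 were within the fold, and Z600, trbl, Myt1 (a difference of -0.64) and lok (-1.41) were lower. Z600, the gene of the Cdk inhibitor Frs, had means of 117 CPM at C12-70min and 714 CPM in control C14E, and trbl, which promotes the loss of Cdc25, had 198 CPM at C12-70min and 579 CPM in control C14E. Z600 lies within gdl on the same strand, and how reads were split between them is not known. CycE, which drives S phase, had means of 212 CPM at C12-70min and 516 CPM in control C14E, and fzr, an activator of cyclin destruction, had 7.93 and 5.603 CPM in the C12-70min embryos, against a control C14E mean of 47.1 CPM. Cdk1 itself was within the fold, at 398 CPM at C12-70min and 400.2 CPM in control C14E. Over the 16 regulators 6 were lower and 2 higher. Of the 13 expressed ones 5 were lower (38.5%, beside 29.0% of all expressed genes). Of 21 DNA replication genes 7 were lower, all of them among the 18 expressed (38.9%, beside 29.0% of all expressed genes), such as RnrS, a subunit of ribonucleotide reductase, with 49.1 and 34.9 CPM in the C12-70min embryos and a control C14E mean of 106 CPM, and PCNA, with means of 263 CPM at C12-70min and 416 CPM in control C14E. The single higher one was Orc4, at 2.81 CPM at C12-70min and 1.46 CPM in control C14E.

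Of the 5 zygotic genes that build the cellularization furrow, nullo was higher, dunk was lower, and bnk and slam were within the fold. nullo (X:7049476-7050321) had 35.6 and 69.5 CPM in the C12-70min embryos, against a control C14E mean of 14.04 CPM. bnk had means of 630.2 CPM at C12-70min and 615 CPM in control C14E, slam had 4419 CPM at C12-70min and 6112 CPM in control C14E, and dunk had 251 CPM at C12-70min and 536 CPM in control C14E. Sry-alpha was listed at 0 in every column, like 1582 protein-coding genes in all with cup among them, so a 0 in this table cannot be read as an absent transcript.

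Genes that rose late in the controls were lower at C12-70min more often than genes of the other courses. The 6288 genes that reached 10 CPM in control C12 or C14L were split by their course in those control columns, which the comparison does not use. The 1849 genes that rose by the fold from control C12 to C14L were lower at C12-70min in 42.4% and higher in 7.57%, with a median of -0.41. The 2549 that fell from control C12 to C14L were lower in 21.1% and higher in 9.65%, with a median of -0.02, and the 1890 that did neither were lower in 22.7% and higher in 2.12%. Over all 6288 the shares were 27.8% lower and 6.77% higher. Control C13 was added for further classes, which a gene could also enter by reaching 10 CPM in C13. They are not a split of the 1849 risers and overlap the courses above. For instance, sc and nullo rose by C13 and fell again, and they also fell from control C12 to C14L. The 1572 genes that had not risen by C13 but had by C14L were lower in 44.5%, with a median of -0.46. The 350 of them that were under 1 CPM in control C12 were higher in 22.3% and lower in 41.4%, with a median of -0.29, while 838 were already at 10 CPM or more in control C12. The 422 genes that rose by C13 and did not fall by C14L were lower in 20.4%, with a median of 0.08. The 198 genes that rose by C13 and fell again by C14L were lower in 8.59% and higher in 11.1%, with a median of 0.09. sc, zen2, nullo, scw and the proneural gene amos belong to these, as does slam, whose highest control mean was in C14E. For sc and nullo the C12-70min mean lay between the highest mean of the arrest and the control C14E mean. For sc the means were 59.6, 57.2 and 22.3 CPM at 30, 50 and 70 minutes of arrest, against 31.5, 48.6, 1.76 and 3.71 CPM in control C12, C13, C14E and C14L. For nullo they were 138, 189 and 52.5 CPM at 30, 50 and 70 minutes of arrest, against 42.7, 184, 14.04 and 0.36 CPM in the 4 controls.

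**Figure D3:**
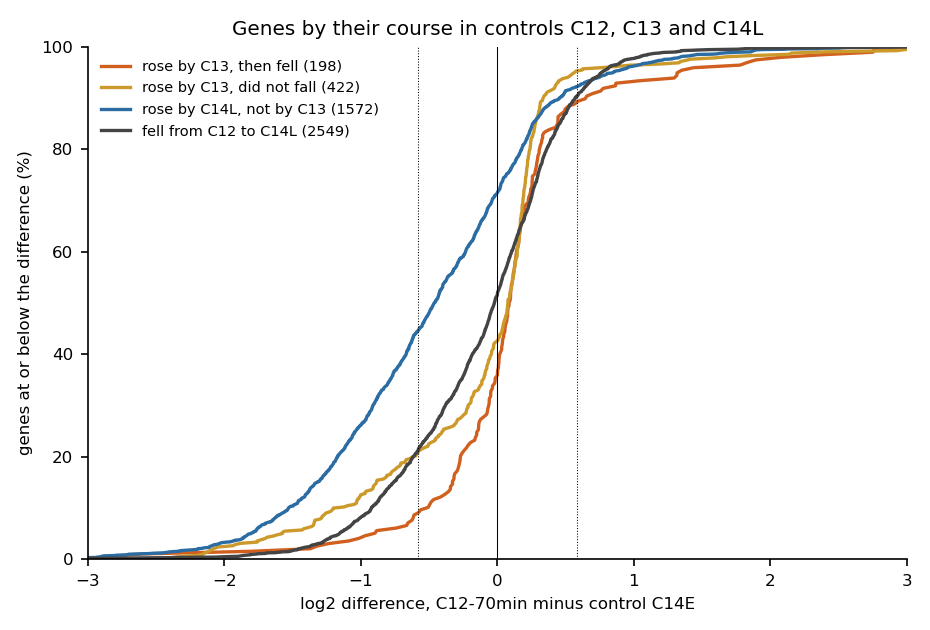
Share of genes, in percent on the y axis, at or below each log2 difference between C12-70min and control C14E on the x axis, for 4 classes of genes by their course in controls C12, C13 and C14L. Dotted lines mark the fold of 1.5. The classes overlap, since genes that rose by C13 and then fell, such as sc, can also have fallen from C12 to C14L. The curve of the 1572 genes that rose by C14L and not by C13 lies to the left, with 44.5% of them under the lower dotted line, against 8.59% of the 198 genes that rose by C13 and then fell.

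**Figure D4:**
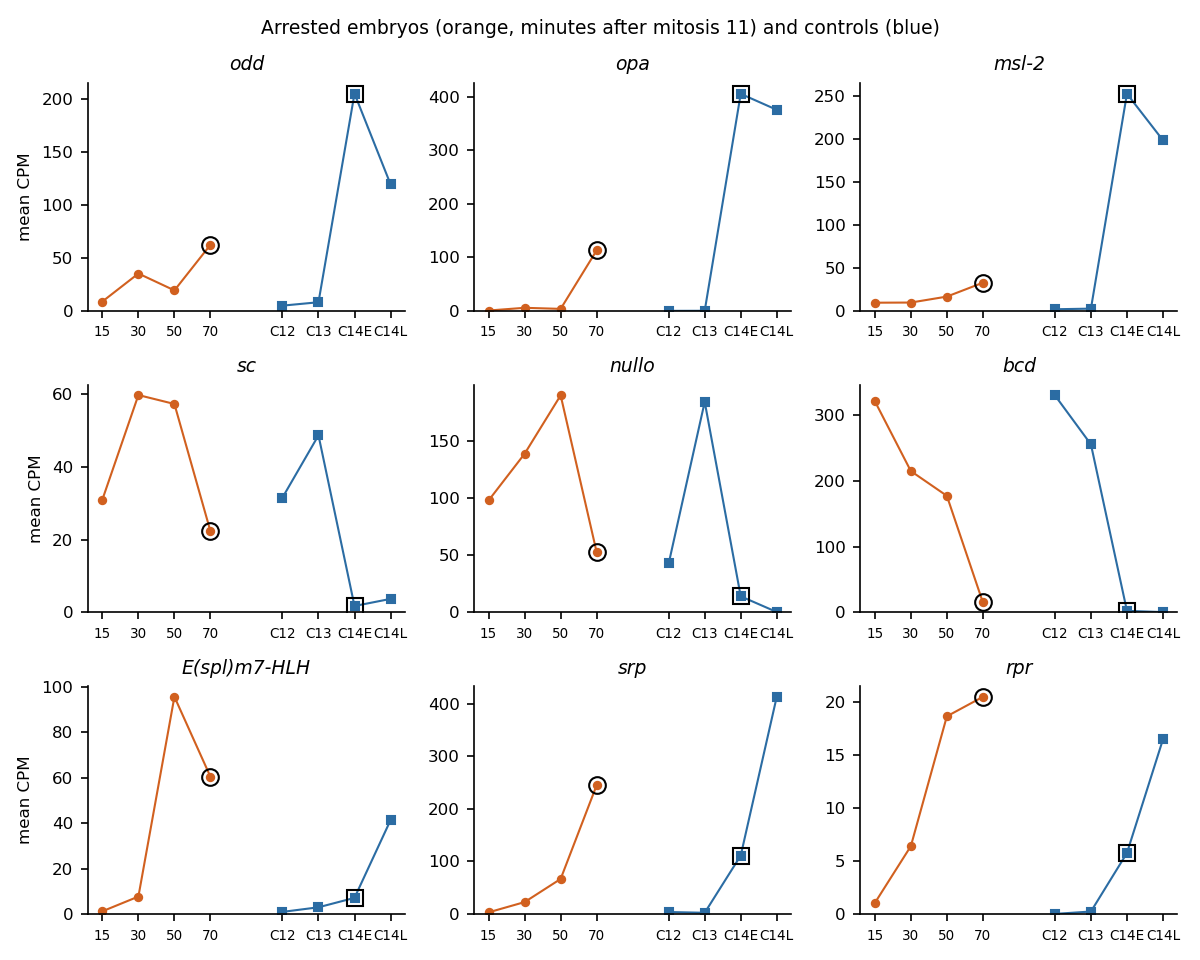
Mean CPM of 9 genes, linear axes from 0, at 15, 30, 50 and 70 minutes of arrest (orange circles) and in controls C12, C13, C14E and C14L (blue squares), with C12-70min and control C14E ringed. odd, opa and msl-2 are lower at C12-70min than in control C14E, and the other 6 genes are higher, of which sc, nullo and bcd have a lower mean at 70 than at 50 minutes of arrest.

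Maternal mRNAs as a group were near their control C14E level, with members on both sides. The study's list of 1223 maternal genes was chosen on the control embryos of this series, so it is not independent of these samples. Of them 154 were higher (12.6%) and 288 lower (23.5%), with a median difference of -0.07, and among the 727 expressed ones 241 were lower (33.1%) and 73 higher, against 29.0% lower and 5.92% higher of all expressed genes. Their summed level was 31737 CPM at C12-70min and 37528 CPM in control C14E, far under the 188940 CPM of control C12. bcd (3R:6755842-6759466), the anterior morphogen, was one of the highest, with 12.3 and 18.2 CPM in the C12-70min embryos, against a control C14E mean of 2.40 CPM. Its means were 215, 177 and 15.3 CPM at 30, 50 and 70 minutes of arrest, and 330.4 and 256 CPM in control C12 and C13. grk, a ligand of the EGF receptor, had 19.998 and 3.499 CPM in the C12-70min embryos, against 1.97, 1.43 and 1.58 CPM in the control C14E embryos, and the formin gene Fhos had 53.7 and 70.1 CPM in the C12-70min embryos against a control C14E mean of 16.4 CPM. At the low end beside CycB were CG6084, with 2.52 and 3.32 CPM in the C12-70min embryos and a control C14E mean of 29.0 CPM, dx, a regulator of Notch, with 3.37 and 4.83 CPM in the C12-70min embryos and a control C14E mean of 22.6 CPM, and lace, an enzyme of sphingolipid synthesis, with 3.67 and 4.65 CPM in the C12-70min embryos and a control C14E mean of 20.1 CPM.

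Of the 12 regulators of maternal mRNA clearance 7 were lower and 1 higher, with a median of -0.91. Of the 9 expressed, 6 were lower (66.7%) and 1 higher (11.1%), beside 29.0% and 5.92% of all expressed genes. smg, the RNA-binding protein that triggers much of the clearance, was the higher one, with means of 236 CPM at C12-70min and 126 CPM in control C14E. The deadenylase subunits twin and Pop2 were lower, twin with 16.3 and 31.3 CPM in the C12-70min embryos and a control C14E mean of 67.6 CPM, and Pop2 with 36.2 and 84.2 CPM in the C12-70min embryos and a control C14E mean of 127 CPM. Of 6 factors of genome activation, all expressed, 3 were lower (50.0%, beside 29.0% of all expressed genes). zld, the main activator of the early zygotic genome, had means of 277 CPM at C12-70min and 515 CPM in control C14E, and the bromodomain gene fs(1)h had 92.0 CPM at C12-70min and 459 CPM in control C14E. Trl, the gene of GAGA factor, was low in both (6.24 CPM at C12-70min and 15.5 CPM in control C14E) and overlaps other genes on its strand. Of 11 localised maternal determinants and germ plasm genes none was lower, and osk and bcd were higher, osk at 4.39 CPM at C12-70min and 2.57 CPM in control C14E. None of the 7 expressed was lower and 1 was higher (14.3%), beside 29.0% and 5.92% of all expressed genes.

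The N/C-dependent and time-dependent lists name genes that earlier microarrays of haploid and diploid embryos had separated by whether their activation was delayed in haploids. Of the 80 N/C-dependent genes found, 50 were lower (62.5%) and 3 higher, with a median of -0.78. Of 110 time-dependent genes 58 were lower (52.7%) and 10 higher, with a median of -0.69. Over all genes 10.7% were lower and 7.5% higher. Of the 68 expressed N/C-dependent genes 67.6% were lower and 2.94% higher. Of the 91 expressed time-dependent genes 60.4% were lower and 7.69% higher. Over all expressed genes 29.0% were lower and 5.92% higher. The median level of the N/C-dependent genes was 32.3 CPM at C12-70min and 61.6 CPM in control C14E. It was 0.61 CPM in control C12 and 1.92 CPM in control C13. For the time-dependent genes it was 30.5 CPM at C12-70min and 56.0 CPM in control C14E, against 0.41 and 0.83 CPM in control C12 and C13. The difference between the lists was not tested. The lowest N/C-dependent genes were hth, a homeodomain cofactor of Hox proteins, with 1.72 and 2.28 CPM in the C12-70min embryos and a control C14E mean of 27.7 CPM, and HmgZ, a chromatin protein, with 35.8 and 8.84 CPM in the C12-70min embryos and a control C14E mean of 171 CPM. The higher ones were Toll-6, srp and stumps, an adaptor of FGF signalling. Toll-6 had 5.45 and 13.2 CPM in the C12-70min embryos, against 0.96, 1.5025 and 2.96 CPM in the control C14E embryos. stumps had 42.8 and 102.9 CPM in the C12-70min embryos, against a control C14E mean of 42.6 CPM, so that its higher mean came from the shallower embryo. The lowest time-dependent genes after grnd were dan and sog, and dan had 24.2 and 33.2 CPM in the C12-70min embryos, against a control C14E mean of 228 CPM. The highest were Mabi, with means of 143 CPM at C12-70min and 31.5 CPM in control C14E, gcm, Traf4 (284 CPM at C12-70min and 93.6 CPM in control C14E) and the laminin gene LanA, with 36.2 and 31.8 CPM in the C12-70min embryos and a control C14E mean of 10.5 CPM.

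srp and gcm, transcription factors of blood cells (srp also of endoderm and fat body), were both higher. srp (3R:15986152-16004085) had means of 22.6, 66.6 and 245 CPM at 30, 50 and 70 minutes of arrest, against 2.17, 111 and 414 CPM in control C13, C14E and C14L. gcm had 13.2 and 15.2 CPM in the C12-70min embryos, against 1.62, 1.05 and 4.97 CPM in the control C14E embryos. It shares exon sequence with CG31709 on the same strand. Among the 6 blood and endoderm markers 4 were higher (66.7%, beside 7.5% of all genes), Pxn and Hml at low levels, and none lower. The sum of the list was 266 CPM at C12-70min and 119 CPM in control C14E, nearly all of it srp. Markers of follicle cells and muscle were near 0, and of those of neurons only elav reached 10 CPM in either condition. The 8 follicle cell and yolk protein genes summed to 2.41 CPM at C12-70min and 0.32 CPM in control C14E, with Yp3 the one past the fold, and 5 muscle genes summed to 1.06 CPM at C12-70min and 0.59 CPM in control C14E, with none past it. The 5 neuronal markers summed to 14.2 CPM at C12-70min and 37.5 CPM in control C14E, of which elav was lower (8.72 CPM at C12-70min and 35.8 CPM in control C14E) and nSyb higher (3.09 CPM at C12-70min and 0.46 CPM in control C14E). The exons of elav overlap lncRNA:enrr on the same strand.

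rpr, skl and hid, genes that promote cell death, were higher, 3 of the 10 apoptosis and p53 genes listed (30.0%, beside 7.5% of all genes). rpr (3L:18397535-18398435) had 25.5 and 15.5 CPM in the C12-70min embryos, against a control C14E mean of 5.75 CPM, and skl had 9.01 and 11.4 CPM in the C12-70min embryos against 1.89, 3.05 and 1.58 CPM in the control C14E embryos. hid had 24.4 and 52.9 CPM in the C12-70min embryos, against a control C14E mean of 18.2 CPM, and only the shallower embryo was past the fold. These 3 neighbours on 3L encode antagonists of the inhibitor of apoptosis Diap1, and Diap1 was lower, with 36.8 and 34.4 CPM in the C12-70min embryos and a control C14E mean of 75.5 CPM. grim, the remaining gene of the cluster, was under 0.2 CPM in both. The other 5 genes of the list, p53 and the caspase gene Dronc included, were within the fold. Among 17 heat shock genes 5 were higher and 2 lower. Of the 7 expressed, 1 was higher (14.3%) and 2 lower (28.6%), beside 5.92% and 29.0% of all expressed genes. Hsp68 had 28.7 and 21.0 CPM in the C12-70min embryos, against a control C14E mean of 3.86 CPM, while 4 Hsp70 genes were higher at levels under 2 CPM, with near-identical copies among which reads cannot be placed with certainty. Hsp83 was lower, with means of 112 CPM at C12-70min and 310.3 CPM in control C14E. Of 19 genes of wound, immune and dsRNA responses, of which 5 were expressed and 3 were listed at 0 in every column, none was higher and 2 were lower, puc and grh. With a pseudocount of 0.1, 4 were higher. grh, a transcription factor of the epidermis, had 71.1 and 82.0 CPM in the C12-70min embryos, against a control C14E mean of 274 CPM. The RNAi enzymes were within the fold, AGO2 with 299.5 CPM at C12-70min and 302 CPM in control C14E, and Dcr-2 with 55.3 CPM at C12-70min and 43.2 CPM in control C14E.

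No cytosolic ribosomal protein gene of 93 was past the fold in either direction, and 88 of them had a difference above 0, with a median of 0.19, beside 0.13 for all genes with 100 CPM or more in both conditions. mRNAs of the mitochondrial genome all had a difference above 0, 13 of 13, with 4 past the fold and a median of 0.51. Of the 10 expressed ones 3 were higher (30.0%, beside 5.92% of all expressed genes). mt:ND3 had means of 524 CPM at C12-70min and 291 CPM in control C14E, and mt:CoI, a subunit of cytochrome oxidase, had 8062 CPM at C12-70min and 5818 CPM in control C14E. Nuclear genes of oxidative phosphorylation had a median of 0.00, with 12 of 81 lower and 2 higher. Of the 60 expressed ones 18.3% were lower, beside 29.0% of all expressed genes. ATPsynC was among the lower with means of 510.1 CPM at C12-70min and 1244 CPM in control C14E. Of 32 proteasome subunit genes 15 were lower (46.9%) and none higher. Of the 31 expressed ones 48.4% were lower, beside 29.0% of all expressed genes. Rpn1, of the regulatory particle, had means of 23.7 CPM at C12-70min and 88.8 CPM in control C14E, while Prosbeta7, of the catalytic core, was within the fold at 649.8 CPM at C12-70min and 556 CPM in control C14E. Neither part was uniform, as Prosalpha3 of the core was lower (-1.015) and Rpt4 of the regulatory particle was within the fold (0.042). Histone variants were all within the fold, 5 of 5, and of 8 tubulin genes gammaTub37C was lower and betaTub60D higher, both under 6 CPM.

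**Figure D5:**
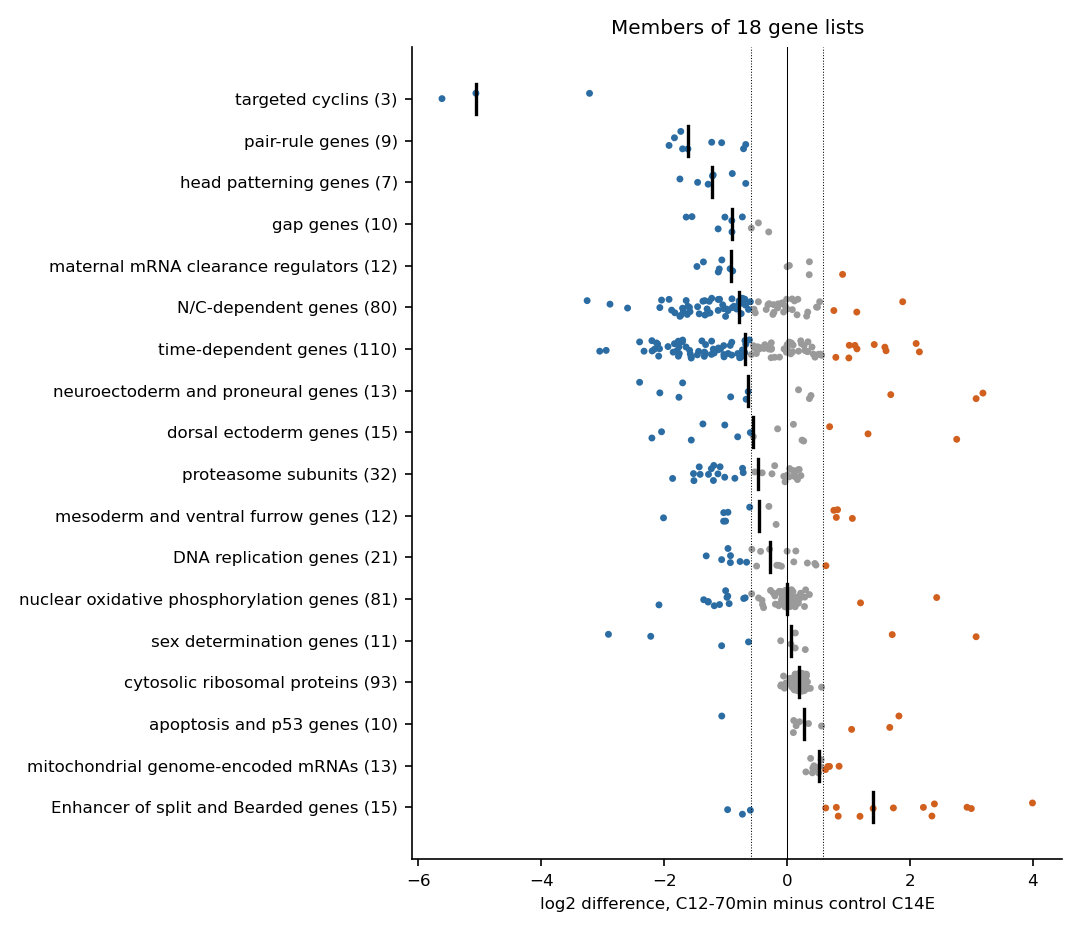
Log2 difference between C12-70min and control C14E on the x axis for each member of 18 gene lists, with the number of members in parentheses. Blue points are lower and orange points higher by more than the fold of 1.5 (dotted lines), grey points are within it, and black bars are medians. Pair-rule genes have their median at -1.61 and Enhancer of split and Bearded genes at 1.40, and ribosomal protein genes are all within the fold.

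The genes with the largest differences apart from those above were of several kinds. CG4415 (2L:1037246-1038685) was the lowest of all, with 0.42 and 0.18 CPM in the C12-70min embryos and a control C14E mean of 239 CPM. Its means were 16.9, 2.16, 0.42 and 0.30 CPM at 15, 30, 50 and 70 minutes of arrest, against 0.16, 0.17, 239 and 3.34 CPM in control C12, C13, C14E and C14L. Its values in the single control C14E embryos were not recovered. Su(z)12, a subunit of the Polycomb complex PRC2, had 20.5 and 23.3 CPM in the C12-70min embryos and a control C14E mean of 203 CPM. Ubi-p63E, a polyubiquitin gene, had 5.30 and 5.49 CPM in the C12-70min embryos, against a control C14E mean of 60.3 CPM. aqz (10.3 and 13.1 CPM in the C12-70min embryos, against a control C14E mean of 157 CPM), whose exons overlap CG9837 on its strand, and CG34384 (0.80 and 4.43 CPM in the C12-70min embryos, against a control C14E mean of 33.0 CPM) completed the 10 lowest. Among abundant genes, with at least 100 CPM in both, the lowest after Z600 were Atg17, an autophagy gene (175 CPM at C12-70min and 838 CPM in control C14E), link (249 CPM at C12-70min and 1115 CPM in control C14E), CG15628 (132 CPM at C12-70min and 573 CPM in control C14E) and CG10035 (276 CPM at C12-70min and 1176 CPM in control C14E).

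Of the 10 highest genes, GluRIIA, a glutamate receptor subunit of the muscle, had 36.2 and 21.1 CPM in the C12-70min embryos, against 0.90, 3.14 and 0.53 CPM in the control C14E embryos, and shares exon sequence with CG14017 on its strand. The channel gene na had 13.6 and 12.3 CPM in the C12-70min embryos, against 0.04, 0.91 and 0.12 CPM in the control C14E embryos. sens, a zinc finger protein of sensory precursors, had 9.17 and 14.9 CPM in the C12-70min embryos, against 0.22, 0.27 and 0.43 CPM in the control C14E embryos. The cadherin gene Cad86C (5.25 and 18.2 CPM in the C12-70min embryos, against 0.39, 0.55 and 0.10 CPM in the control C14E embryos) and CG8908 (15.5 and 22.2 CPM in the C12-70min embryos, against 0.55, 0.87 and 0.91 CPM in the control C14E embryos) were high in both C12-70min embryos as well. In CG34355 and CG15482 the mean came from 1 embryo, as with the Enhancer of split genes. CG34355 had 42.4 and 1.53 CPM in the C12-70min embryos, against 0.94, 0.64 and 0.84 CPM in the control C14E embryos, and CG15482 had 33.0 and 3.43 CPM in the C12-70min embryos against 0.83, 1.68 and 0.05 CPM in the control C14E embryos. The other members of the 10 highest were Cyp309a1, a cytochrome P450 gene (50.2 and 27.0 CPM in the C12-70min embryos, against a control C14E mean of 2.82 CPM), and nAChRalpha4, an acetylcholine receptor subunit (27.0 and 50.2 CPM in the C12-70min embryos, against a control C14E mean of 3.305 CPM), whose exons overlap transposon fragments. The highest abundant genes were CG6051 (269 CPM at C12-70min and 116 CPM in control C14E), anne (244 CPM at C12-70min and 110.1 CPM in control C14E), srp, CG3036 (487 CPM at C12-70min and 229 CPM in control C14E) and the ubiquitin ligase gene Ube3a (227 CPM at C12-70min and 113 CPM in control C14E).

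Some genes named here have exons that overlap a gene of the other strand, among them hth, grnd, twe, da, eve, grk, CG8908 and CG15482, and reads of such pairs cannot be told apart if counting was without strand.

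Gene length and chromosome were features that the comparison did not use. Among expressed genes, the 110 that span more than 50 kb had a median difference of 0.17, with 17.3% higher and 21.8% lower. The 795 of 5 to 10 kb had a median of -0.22, with 5.03% higher and 33.6% lower, and the 422 of up to 1 kb had a median of 0.06, with 6.64% higher and 13.7% lower, so the medians did not follow length throughout. The longest genes also had the higher median among genes that fell from control C12 to C14L, where the 72 longest had a median of 0.23 and the 441 of 5 to 10 kb one of -0.01. So they did among those that rose, where the 59 longest had a median of 0.0033 and the 259 of 5 to 10 kb one of -0.43, and the 141 of 20 to 50 kb one of -0.48. In the single C12-70min embryos, 55 of the 110 longest genes had reads, with a median of -0.01 in the deeper embryo and 0.29 in the shallower. The 490 genes of 5 to 10 kb with reads had -0.62 and -0.40, below the longest genes in both embryos. The 314 genes of up to 1 kb with reads had 0.02 in the deeper embryo and -0.06 in the shallower. By chromosome the medians lay between -0.12 and -0.08 on X, 2L, 2R, 3L and 3R. The 43 genes of the small chromosome 4 had a median of 0.25, with 7 higher and 6 lower. anne, Thd1 (68.5 CPM at C12-70min and 33.4 CPM in control C14E) and 4E-T (246 CPM at C12-70min and 146 CPM in control C14E) were the highest of them. Over the 18 chromosome 4 genes with reads, none above 100 CPM, the median of the means was -0.10, with -0.41 in the deeper embryo and 0.17 in the shallower, against medians of the means of -0.38 to -0.29 on the 5 larger arms. No test was made of either feature, since genes are not replicates.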

How the data were processed

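mRNA of 19 single embryos in 8 conditions had been sequenced. The authors trimmed the reads with Trim Galore 0.6.0, aligned them to dm6 (BDGP6) with STAR 2.5.3a, and used featureCounts (Subread 1.6.0) to count the uniquely aligned ones per gene. Whether counting used strand is not given in the sources used here. The authors deposited the log2 of each condition's mean CPM plus 1, to 9 decimals. The control C12 mean leaves out 1 of its 3 embryos.

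Differences of these log2 values were taken in Python (3.11.15) using pandas 2.3.3, numpy 2.4.6 and scipy 1.17.1, and figures were drawn with matplotlib 3.10.9. A fold above 1.5 made a call. No limma or count model was fitted, since the deposited values are condition means and reads of all 5 embryos were recovered only for genes low in control C14E. The totals of reads were fitted from the steps of the low values, and a value was kept where exactly 1 set of whole reads gives the deposited mean: 98.9% of the C12-70min values up to 100 CPM and 92.5% of the control C14E values up to 5 CPM. The fitted totals lay within 0.0044 of whole numbers. The caller and the recovery were tested on simulated data.

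Genes named are the 3 cyclins, the 10 highest and 10 lowest differences among expressed genes, the 5 highest and 5 lowest with at least 100 CPM in both, members of the gene lists, and up to 5 at each end of the N/C-dependent, time-dependent and maternal lists. amos, Thd1 and 4E-T were chosen after their values were seen. The comparison and the lists were chosen with earlier results of these data known, and counts describe, without a test. Of the lists' names, BobB, BobC and 1 N/C-dependent identifier are not in the table. Gene positions come from Ensembl 115 and matched 99.4% of the genes.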

Additional observations from a re-analysis of the deposited data

How the results depend on the processing

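No paired analysis was possible because the deposited values are condition means. Counts over all genes depend on the treatment of low values. Of genes higher at C12-70min, a pseudocount of 0.1 gave 3615, a pseudocount of 10 gave 254, a filter at 10 CPM in either condition gave 304 and a fold of 2 gave 529, against 1331. Of genes lower, a pseudocount of 10 gave 1116 and a fold of 2 gave 918, against 1894. Centring on the median gave 1500 higher and 1752 lower. Of all 33 lists, 8 had a median past the fold on the lower side, 5 with a pseudocount of 10, 13 among members with at least 10 CPM and 3 with a fold of 2. Over genes with reads of both C12-70min embryos, either embryo alone gave 1214 to 1354 higher, against 1241 for their mean, and 1630 to 1978 lower, against 1715. Of 463 other counts and medians of lists, 95 moved by more than the spread and 0 medians past the fold changed sign. The Enhancer of split and Bearded median was 2.97 with a pseudocount of 0.1 and 0.33 with 10. The median of genes with at least 100 CPM in both was 0.13, against -0.05 with at least 10 CPM. Promoter motifs were planned and not run, since no promoter sequences were used here. Classes by control C13 and the recovery of control C14E reads were added after the data were seen.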
